A study of Homo sapiens with 12 samples.

Results

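MicroRNA levels were compared between the gastric cancer cell lines AGS and HGC-27 under the solvent DMSO alone, in 6 of the 12 small RNA libraries of the series, 3 from AGS and 3 from HGC-27. AGS is an epithelial line from a gastric adenocarcinoma, and HGC-27 is an undifferentiated line from a lymph node metastasis of gastric cancer. Both were grown in RPMI 1640 medium with fetal bovine serum and held in DMSO for 24 h. The other 6 libraries came from the same lines after 24 h with 5 µM SAHA (vorinostat), an inhibitor of histone deacetylases, and served here for the estimate of spread and for a second comparison of the lines. The members were the annotated mature microRNAs of the deposited count table, 1906 names in all, each represented by its hairpin with the highest count. Of these, 608 passed the filter on low counts and were tested. Each group is a single cell line, and the labels do not say whether replicates were separate cultures, so the p-values measure only the spread between these libraries, which may be technical.

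A microRNA is cut from a hairpin transcript and guides a silencing complex to messages that pair with its seed, the bases from position 2 to position 8. MicroRNAs with the same seed form a family and can share targets, even when they are made from separate loci. MicroRNAs made from neighbouring hairpins are often cut from the same primary transcript, and many lie in introns of other genes. In the stomach, miR-148a is an abundant epithelial microRNA, miR-192, miR-194 and miR-215 mark gut-type epithelium, and miR-200 family members hold cells in the epithelial state.

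The sequences below are examples from the 11 seeds whose members were called in both directions between the lines. They are the mature RNAs from RefSeq (GRCh38.p14), written 5′ to 3′ with the seed in capitals. In the miR-99 and miR-100 family, the first pair was higher in AGS and the last was lower.
miR-100-5p: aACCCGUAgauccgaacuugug
miR-99a-5p: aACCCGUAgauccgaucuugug
miR-99b-5p: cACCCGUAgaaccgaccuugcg
In the miR-27 family, miR-27b-3p was higher in AGS and miR-27a-3p was lower.
miR-27b-3p: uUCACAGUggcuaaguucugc
miR-27a-3p: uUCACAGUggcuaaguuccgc
In the miR-181 family, miR-181a-5p was higher in AGS, miR-181c-5p and miR-181d-5p were lower, and miR-181b-5p was not called.
miR-181a-5p: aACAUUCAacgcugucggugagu
miR-181c-5p: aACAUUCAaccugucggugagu
miR-181d-5p: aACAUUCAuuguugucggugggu
miR-181b-5p: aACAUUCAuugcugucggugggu
In the miR-148 and miR-152 family, miR-152-3p was higher in AGS, miR-148a-3p was lower and miR-148b-3p was not called.
miR-152-3p: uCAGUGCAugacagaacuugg
miR-148a-3p: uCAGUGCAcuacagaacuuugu
miR-148b-3p: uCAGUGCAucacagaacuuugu
Several of these RNAs differ by 1 base or by 2, counted as substitutions, insertions and deletions. The distance is 1 between miR-27a-3p and miR-27b-3p, between miR-100-5p and miR-99a-5p, between miR-181a-5p and miR-181c-5p and between miR-181b-5p and miR-181d-5p. How the authors assigned reads that match both partners is not given in the sources used here, so the level of each partner is uncertain to that extent. Across the microRNAs tested, 63 pairs lay within 2 such changes of each other or held one sequence inside the other.

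Depth was between 2665109 and 4220848 counts per AGS library and between 4656495 and 6525388 counts per HGC-27 library. Every level below is in CPM, counts scaled to library size by the TMM method, and a fold change is the log2 value fitted by edgeR for AGS over HGC-27. On the first principal component, with 69.8% of the variance, the 3 AGS libraries (7.76 to 12.3) lay apart from the 3 HGC-27 libraries (-11.5 to -7.45). HGC-27 DMSO 1 stood apart on the second component, with 16.5% of the variance, at 8.84 against -3.07 and -3.29 in the other HGC-27 libraries. It held microRNAs of striated muscle at levels that its replicates did not: miR-1-3p reached 1035 CPM, against 6.78 and 4.82 CPM in HGC-27 DMSO 2 and 3. AGS DMSO 2 likewise held miR-143-3p at 3438 CPM, against 988 and 493 CPM in AGS DMSO 1 and 3. HGC-27 SAHA 2, which enters the same fit, stood apart in earlier results of these data. Several calls and list counts change without these 3 divergent libraries, and values without them are given beside the results they touch most.

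Of the 608 microRNAs tested, edgeR's quasi-likelihood test called 271 (44.6%) at an adjusted p under 0.05, 149 higher in AGS (24.5%) and 122 lower (20.1%). The median log2 fold change of all 608 was 0.03. A difference of 2-fold or more was called for 168 microRNAs (27.6%), 105 of them higher in AGS (17.3%) and 63 lower (10.4%). The calls of 4-fold or more were 44 higher and 19 lower. The 3 AGS libraries did not overlap the 3 HGC-27 libraries for 336 microRNAs (55.3%), of which 266 were called. Without the 3 libraries that stood apart, 232 were called, and 209 of them, all in the same direction, were among the 271 (77.1% of the 271 and 90.1% of the 232). Of the 227 tested at 100 CPM or more in the higher line, 25 were called higher in AGS by 2-fold or more and 29 lower. At any size of fold, 52 of the 227 were called higher without overlap and 75 lower.

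**Figure D1:**
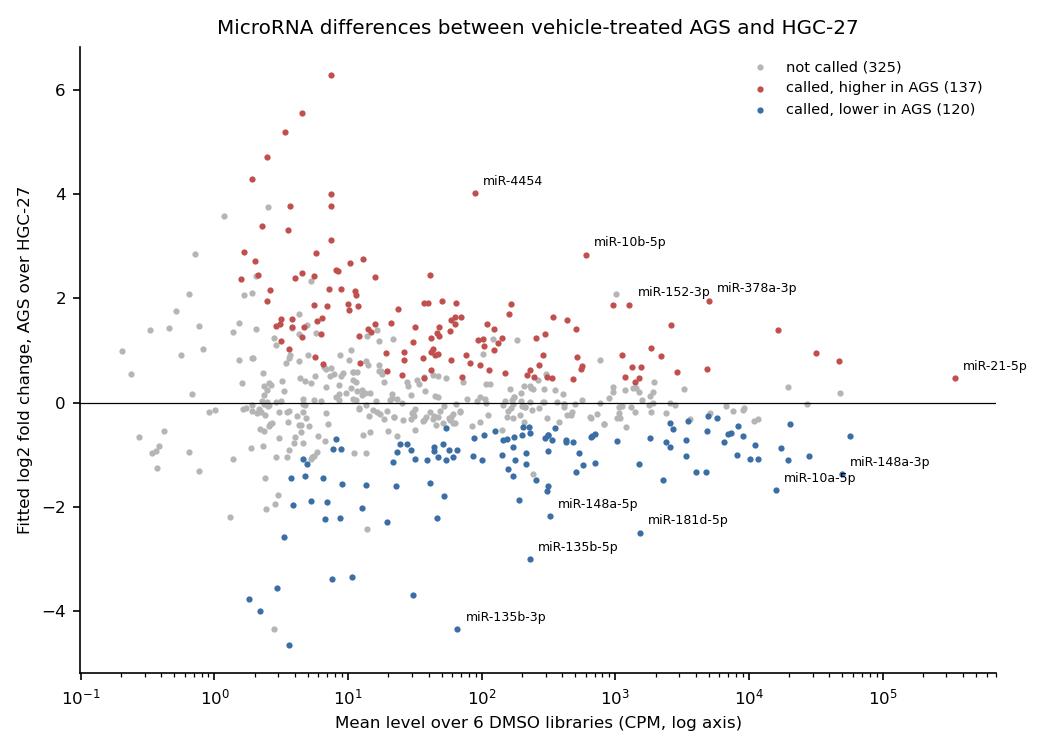
Each point is a microRNA, with its mean level over the 6 DMSO libraries on the horizontal log axis (CPM) and its fitted log2 fold change, AGS over HGC-27, on the vertical axis. Red points were called higher in AGS, blue points lower and grey points were not called; 582 microRNAs are drawn and 26 listed at 0 in all DMSO libraries of a line or of both are left out. The labelled points include miR-4454 at 4.02 and miR-135b-3p at -4.34.

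Among microRNAs with a mean of 100 CPM or more in the higher line and no overlap, both arms of miR-135b showed the largest deficit in AGS. This microRNA targets the Wnt regulator APC and is known from colorectal tumours. Its hairpin lies at chr1:205448302-205448398 (GRCh38.p14, minus strand), in an intron of LEMD1. Its mature RNAs are printed here with their seeds in capitals, because they head the list of differences.
miR-135b-5p: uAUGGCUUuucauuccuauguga
miR-135b-3p: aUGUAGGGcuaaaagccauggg
The 3p arm stood at 6.68, 5.996 and 5.62 CPM in AGS, against 115, 129 and 130.0 CPM in HGC-27 (log2 fold change -4.34, SE 0.17, adjusted p = 1.49e-08, edgeR). The 5p arm stood at 57.6, 60.3 and 33.7 CPM in AGS, against 436, 453 and 330.3 CPM in HGC-27 (-3.00, SE 0.25, adjusted p = 6.33e-06). Every AGS library lay far below every HGC-27 library for both arms.

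The miR-181c and miR-181d hairpins lie next to each other on chromosome 19, in an intron of NANOS3. miR-181d-5p was the most abundant of their products, with 424, 449 and 509 CPM in AGS, against 2506, 2585 and 2681 CPM in HGC-27 (log2 fold change -2.49, SE 0.09, adjusted p = 1.29e-08). The passenger strand miR-181c-3p stood at 84.7, 74.6 and 83.8 CPM in AGS, against 275, 318 and 297 CPM in HGC-27 (-1.87, SE 0.11). Neither overlapped between the lines.

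The next largest deficits in AGS fell on microRNAs of several unrelated loci. miR-148a-5p, the minor arm of the gastric miR-148a hairpin, stood at 91.6, 137 and 123 CPM in AGS, against 532, 550.2 and 502 CPM in HGC-27 (-2.17). miR-574-5p, from an intron of FAM114A1, stood at 128, 99.6 and 206 CPM in AGS, against 419.6, 479.7 and 509 CPM in HGC-27 (-1.70). AGS DMSO 3 was the highest of its line for this microRNA, still below all HGC-27 libraries. miR-675-5p, made from an exon of the imprinted noncoding gene H19, stood at 153, 105 and 147 CPM in AGS, against 369, 377 and 386 CPM in HGC-27 (-1.49). miR-30b-5p, of the miR-30 family, stood at 1434, 910.1 and 1265 CPM in AGS, against 2763, 3331 and 3945 CPM in HGC-27 (-1.48). The adjusted p-values of these 4 lay between 6.79e-06 and 1.20e-04 in edgeR's quasi-likelihood test.

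In the other direction, miR-378a-3p was the most abundant of the microRNAs with large excess in AGS. It comes from an intron of PPARGC1B, a coactivator of mitochondrial metabolism, at chr5:149732825-149732890 (GRCh38.p14, plus strand). Its level was 8061, 8194 and 7561 CPM in AGS, against 2203, 2073 and 1860.4 CPM in HGC-27 (log2 fold change 1.96, SE 0.11, adjusted p = 6.37e-07, edgeR). Its relatives miR-378i and miR-378c, annotated at other loci, moved with it. They are printed with it because their letters are almost the same, the seed again in capitals.
miR-378a-3p: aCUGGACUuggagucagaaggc
miR-378i: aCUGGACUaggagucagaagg
miR-378c: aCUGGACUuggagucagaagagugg
miR-378i stood at 1586, 1719 and 1196 CPM in AGS, against 426, 435 and 365 CPM in HGC-27 (1.88). miR-378c stood at 521, 562 and 470.5 CPM in AGS, against 181, 153 and 164 CPM in HGC-27 (1.64). The 3 fold changes were alike, and the counts cannot show whether the minor entries hold RNA of their own or variants of miR-378a-3p reads.

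miR-10b-5p, from an intron of HOXD3, stood at 966, 1049.7 and 1141 CPM in AGS, against 218, 119.5 and 104 CPM in HGC-27 (log2 fold change 2.84, SE 0.28, adjusted p = 1.81e-05). miR-152-3p, from an intron of COPZ2, stood at 1929, 1863 and 2212 CPM in AGS, against 410.3, 604 and 618 CPM in HGC-27 (1.88). miR-27b-5p, the minor arm of a hairpin on chromosome 9, stood at 235, 261 and 289 CPM in AGS, against 69.5, 78.4 and 63.3 CPM in HGC-27 (1.89). In each of these the lines lay well apart, although HGC-27 DMSO 1 was the highest HGC-27 library for miR-10b-5p and the lowest for miR-152-3p. miR-576-3p, from an intron of SEC24B, stood at 262, 293 and 186 CPM in AGS, against 81.5, 76.6 and 68.7 CPM in HGC-27 (1.71). miR-486-5p, a microRNA of red blood cells, stood at 69.6, 61.6 and 170.4 CPM in AGS, against 27.7, 30.6 and 21.8 CPM in HGC-27 (1.91, adjusted p = 0.00140). The AGS mean of miR-486-5p rested in good part on AGS DMSO 3, where miR-451a was also highest.

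The largest excess of all at this level belonged to miR-4454, at 196, 140.2 and 162 CPM in AGS, against 9.82, 9.04 and 11.8 CPM in HGC-27 (log2 fold change 4.02, SE 0.25, adjusted p = 7.92e-07). This entry overlaps sequence of a transfer RNA and is not a clear microRNA. Of the 5 tested entries that overlap other small RNAs it was the only one called with all libraries, beside 44.6% over all 608. miR-1260b, miR-1260a and miR-7977 had fold changes of -0.03, -0.29 and -0.04. miR-1260a was called lower in AGS with DESeq2 size factors in edgeR (-0.34, adjusted p = 0.0213) and with DESeq2 (-0.34, adjusted p = 0.00336). It was also called lower by edgeR with predicted entries in the fit (adjusted p = 0.0197) and without AGS DMSO 3 (adjusted p = 0.0281).

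**Figure D2:**
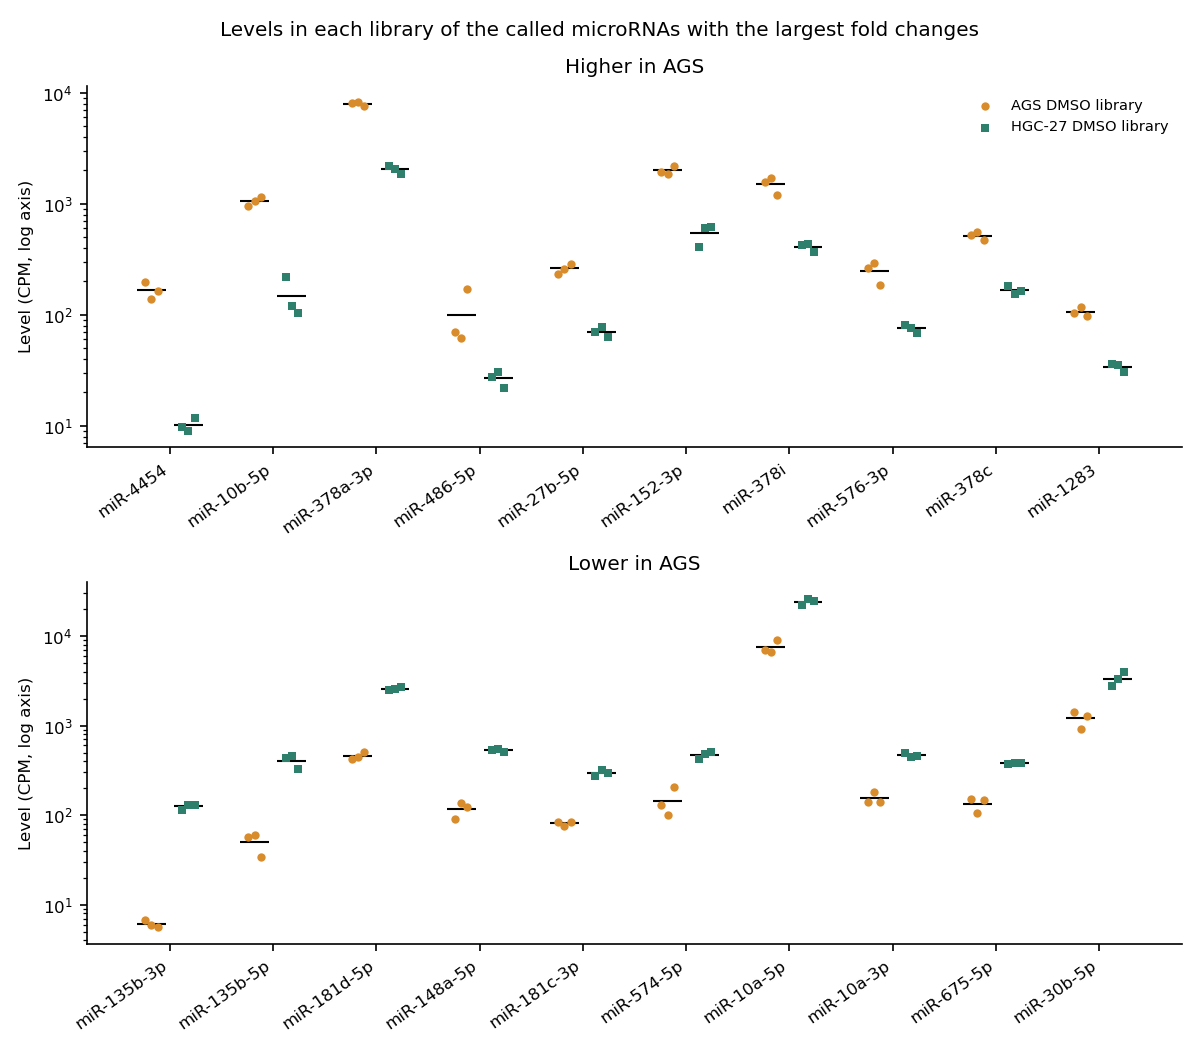
Levels in CPM (log axis) of the 10 microRNAs with the largest called fold changes in each direction, among those with a mean of 100 CPM or more in the higher line and no overlap between the lines. Circles are AGS DMSO libraries, squares are HGC-27 DMSO libraries and bars are means of 3. The 3 miR-10a-5p squares lie between 21966 and 26011 CPM, above the AGS circles at 6571 to 9019.7 CPM.

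The 10 most abundant microRNAs differed by at most 1.37 on the log2 scale. miR-21-5p, an oncogenic microRNA that led every library, stood at 400640.0, 402522 and 399218 CPM in AGS, against 262220.0, 330441 and 275756 CPM in HGC-27 (log2 fold change 0.47, SE 0.10, adjusted p = 0.00343). It made up 37.3% to 39.6% of the annotated counts in AGS and 26.0% to 28.5% in HGC-27. miR-100-5p and miR-27b-3p were also called higher in AGS, with fold changes of 0.79 and 0.95. miR-30a-5p was lower, with 42013, 41563 and 49659.9 CPM in AGS, against 56634, 79598 and 70970.2 CPM in HGC-27 (-0.64). let-7g-5p, of the growth-restraining let-7 family, was lower, with 16955, 19733 and 18865 CPM in AGS, against 33544, 39064 and 40102 CPM in HGC-27 (-1.02, adjusted p = 7.57e-06). Its close relatives let-7i-5p (0.19, adjusted p = 0.128) and let-7f-5p (-0.03, adjusted p = 0.810) were not called. let-7i-5p was called higher with plain totals (0.21, adjusted p = 0.0324) and at a mean of at least 10 CPM (0.28, adjusted p = 0.0281). miR-20a-5p was called lower at the edge of the threshold (-0.41, adjusted p = 0.0499), and the call was lost under 10 of the alternatives. miR-7-5p was not called (0.30, adjusted p = 0.100). It was called higher with plain totals (adjusted p = 0.0451), at a mean of at least 10 CPM (0.0299) and without AGS DMSO 2 (0.0118).

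miR-148a-3p, which represses DNA methyltransferase genes, was the most abundant microRNA with a called difference of 2-fold or more. It stood at 17057, 47339 and 18226 CPM in AGS, against 55589, 91217 and 66984 CPM in HGC-27 (log2 fold change -1.37, SE 0.41, adjusted p = 0.0181). AGS DMSO 2 held more than its replicates and came close to the lowest HGC-27 library. Without the 3 libraries that stood apart the fold change was -2.19 (adjusted p = 6.72e-04). Without AGS DMSO 1 it was not called (adjusted p = 0.0644), nor without HGC-27 DMSO 2 (adjusted p = 0.0613).

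The 6 most abundant calls of 2-fold or more were miR-148a-3p, let-7g-5p, miR-92a-3p, miR-99a-5p, miR-10a-5p and miR-26a-5p, and 5 of them were lower in AGS. miR-92a-3p, a product of the growth-promoting cluster that also encodes miR-17 and miR-20a, stood at 11432, 11008 and 14944 CPM in AGS, against 25709, 27428 and 27326 CPM in HGC-27 (-1.11, adjusted p = 3.53e-05). miR-26a-5p, which represses EZH2, stood at 6241, 8336 and 7929 CPM in AGS, against 13835, 16559.9 and 17332 CPM in HGC-27 (-1.08, adjusted p = 4.57e-05). miR-99a-5p was the exception, higher in AGS, with 20516, 29621 and 21359 CPM in AGS, against 8906, 9655 and 8493 CPM in HGC-27 (1.40, adjusted p = 8.04e-05).

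Some related microRNAs from separate loci differed in opposite directions. The clearest case was the group of clusters that pair a miR-99 or miR-100 hairpin with a let-7 and a miR-125 hairpin. Products of the chromosome 11 cluster, in MIR100HG, were higher in AGS. miR-100-5p stood at 53767, 56679.7 and 69702 CPM in AGS, against 33273, 36678 and 34020.5 CPM in HGC-27, and let-7a-2-3p at 37.6, 26.7 and 29.02 CPM in AGS, against 13.01, 11.1 and 8.29 CPM in HGC-27. The chromosome 21 cluster, in MIR99AHG, gave miR-99a-5p, miR-99a-3p and let-7c-3p higher in AGS, with fold changes of 1.40, 1.503 and 0.94.

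The chromosome 19 cluster, in an intron of SPACA6, went the other way. miR-99b-5p stood at 5401, 5074 and 7135 CPM in AGS, against 8487, 9200.1 and 8577 CPM in HGC-27 (-0.58, adjusted p = 0.00805), a call lost without AGS DMSO 2 (-0.42, adjusted p = 0.0853). let-7e-5p stood at 1705, 1633 and 1994 CPM in AGS, against 2774, 3091 and 3087 CPM in HGC-27 (-0.75). miR-125a-5p stood at 1612, 1578 and 2298 CPM in AGS, against 3156, 3148 and 3567 CPM in HGC-27 (-0.85). All 6 tested products of this cluster had negative fold changes, 4 of them called. Over all 3 loci, 6 of the 11 tested miR-99, miR-100 and miR-125 members were called higher in AGS and 3 lower, with a median log2 fold change of 0.68, where 24.5% of all 608 were higher and 20.1% lower. The summed level of those 11 was 84432 to 104108 CPM in AGS libraries and 56455 to 61275.5 CPM in HGC-27 libraries.

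The miR-23, miR-27 and miR-24 clusters on chromosomes 9 and 19 showed the same split. From chromosome 9, miR-27b-3p stood at 38892, 41892 and 45031 CPM in AGS, against 20457, 22933 and 21624 CPM in HGC-27 (0.95), and miR-23b-3p at 3614, 3028 and 3693 CPM in AGS, against 2265, 2226 and 2395 CPM in HGC-27 (0.59). From chromosome 19, miR-27a-3p stood at 7628, 8664 and 7907 CPM in AGS, against 13788, 14195 and 14305 CPM in HGC-27 (-0.81), and miR-23a-3p at 6034, 4189 and 5893 CPM in AGS, against 10798, 10739 and 10921 CPM in HGC-27 (-1.01). No library of either line crossed over for any of these 4, whose adjusted p-values lay between 8.84e-06 and 5.69e-04. The miR-27 RNAs printed above differ by 1 base near the 3′ end, so reads cut short of it match both. miR-24-3p, which both clusters encode, was slightly lower in AGS (-0.36, adjusted p = 0.0284), while the chromosome 9 passenger strand miR-24-1-5p was higher (1.90). The miR-24-3p call was lost with a replicate block (adjusted p = 0.0513), at a mean of at least 10 CPM (0.0707), without HGC-27 DMSO 2 (0.0879) and without AGS DMSO 1 (0.0750). Of the 11 tested products, 4 were called higher and 4 lower, with a median of 0.21, where 24.5% of all 608 were higher and 20.1% lower.

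The miR-181 family, which acts in differentiation, is made from 3 loci. The chromosome 19 products miR-181c-5p (-2.20), miR-181c-3p and miR-181d-5p were all lower in AGS. From chromosome 1, miR-181a-5p stood at 1608, 1797 and 1343 CPM in AGS, against 1200.1, 1196 and 1221 CPM in HGC-27 (0.39, adjusted p = 0.0137). That call was lost without HGC-27 DMSO 1 (adjusted p = 0.0520), without HGC-27 DMSO 2 (0.0527), without the 3 libraries that stood apart (0.117) and with no filter on low counts (0.109). From chromosome 9, miR-181a-2-3p stood at 701, 589 and 715 CPM in AGS, against 389.9, 371 and 335 CPM in HGC-27 (0.87), and miR-181b-2-3p was also higher (1.41). Guide strands of miR-181a and miR-181b come from both the chromosome 1 and the chromosome 9 hairpins, so the counts of the guides do not tell these loci apart. miR-181b-5p, 1 change away from miR-181d-5p, was not called (-0.17, adjusted p = 0.208).

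Members of the miR-15 and miR-16 family, which restrain the cell cycle and survival, split by locus as well. The chromosome 17 pair was higher in AGS at low levels: miR-195-5p stood at 39.3, 24.98 and 15.9 CPM in AGS, against 6.87, 3.52 and 4.63 CPM in HGC-27 (2.42), and miR-497-5p at 9.75, 10.7 and 7.49 CPM in AGS, against 1.72, 2.51 and 0.964 CPM in HGC-27 (2.43). The chromosome 13 locus, in DLEU2, gave miR-15a-5p at 30.4, 20.7 and 19.2 CPM in AGS, against 68.99, 86.1 and 89.3 CPM in HGC-27 (-1.79). The X-linked miR-424-5p stood at 143, 90.9 and 105 CPM in AGS, against 242, 223 and 256 CPM in HGC-27 (-1.09), and its neighbour miR-503-5p was also lower (-0.66). The most abundant members, miR-16-5p (-0.30, adjusted p = 0.238) and miR-15b-5p (0.06, adjusted p = 0.753), were not called. In all, 3 of 12 tested members were called higher and 6 lower (median -0.39), where 24.5% of all 608 were higher and 20.1% lower. The passenger strand miR-15b-3p, 1 of the 6, lost its call in 9 of the alternatives, among them the fit that leaves out the 3 divergent libraries (-0.37, adjusted p = 0.117).

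Both arms of miR-152 were higher in AGS and both arms of miR-148a lower. miR-152-5p stood at 26.7, 44.97 and 38.4 CPM in AGS, against 9.08, 11.3 and 11.4 CPM in HGC-27 (1.79). miR-148b-3p stood at 7363, 16037 and 7835 CPM in AGS, against 8988, 15161 and 14851 CPM in HGC-27 (-0.32, adjusted p = 0.396) and was not called. AGS DMSO 2 held the highest of the 6 values, and without the 3 libraries that stood apart miR-148b-3p was called lower (-1.01, adjusted p = 2.20e-04).

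The HOX clusters, which set position along the body axis, carry miR-10 and miR-196 hairpins. miR-10a-5p, from HOXB3 on chromosome 17, stood at 6942, 6571 and 9019.7 CPM in AGS, against 21966, 26011 and 24302 CPM in HGC-27 (-1.68, SE 0.12, adjusted p = 2.94e-06). It is printed here with its seed in capitals as the most abundant HOX microRNA.
miR-10a-5p: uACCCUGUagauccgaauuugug
Its passenger miR-10a-3p was lower by a similar amount (-1.59), and miR-10b-5p from HOXD3 was higher, as given above. miR-196a-5p stood at 1421, 1166 and 1564 CPM in AGS, against 2140.4, 2203 and 2319.6 CPM in HGC-27 (-0.68). miR-615-3p narrowly missed the threshold (-0.47, adjusted p = 0.0522) and was called lower in 9 of the alternatives, among them DESeq2 (adjusted p = 0.00922) and the fit that leaves out the 3 divergent libraries (-0.68, adjusted p = 0.0137). Of 8 tested HOX microRNAs, 3 were called higher and 4 lower (median -0.58), and 5 lower without those libraries. The shares over all 608 were 24.5% higher and 20.1% lower.

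Of the related miR-130, miR-301 and miR-454, the chromosome 22 products were higher in AGS, with miR-130b-3p at 129, 95.9 and 74.9 CPM in AGS, against 55.98, 50.98 and 51.5 CPM in HGC-27 (0.92) and miR-301b-3p at 2.071. From the SKA2 intron on chromosome 17, miR-454-3p stood at 458, 257 and 374 CPM in AGS, against 627, 720.0 and 767 CPM in HGC-27 (-0.96), and miR-301a-5p was lower too (-0.90). Of 8 tested members, 2 were called higher and 3 lower (median 0.22), beside 24.5% higher and 20.1% lower over all 608.

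**Figure D3:**
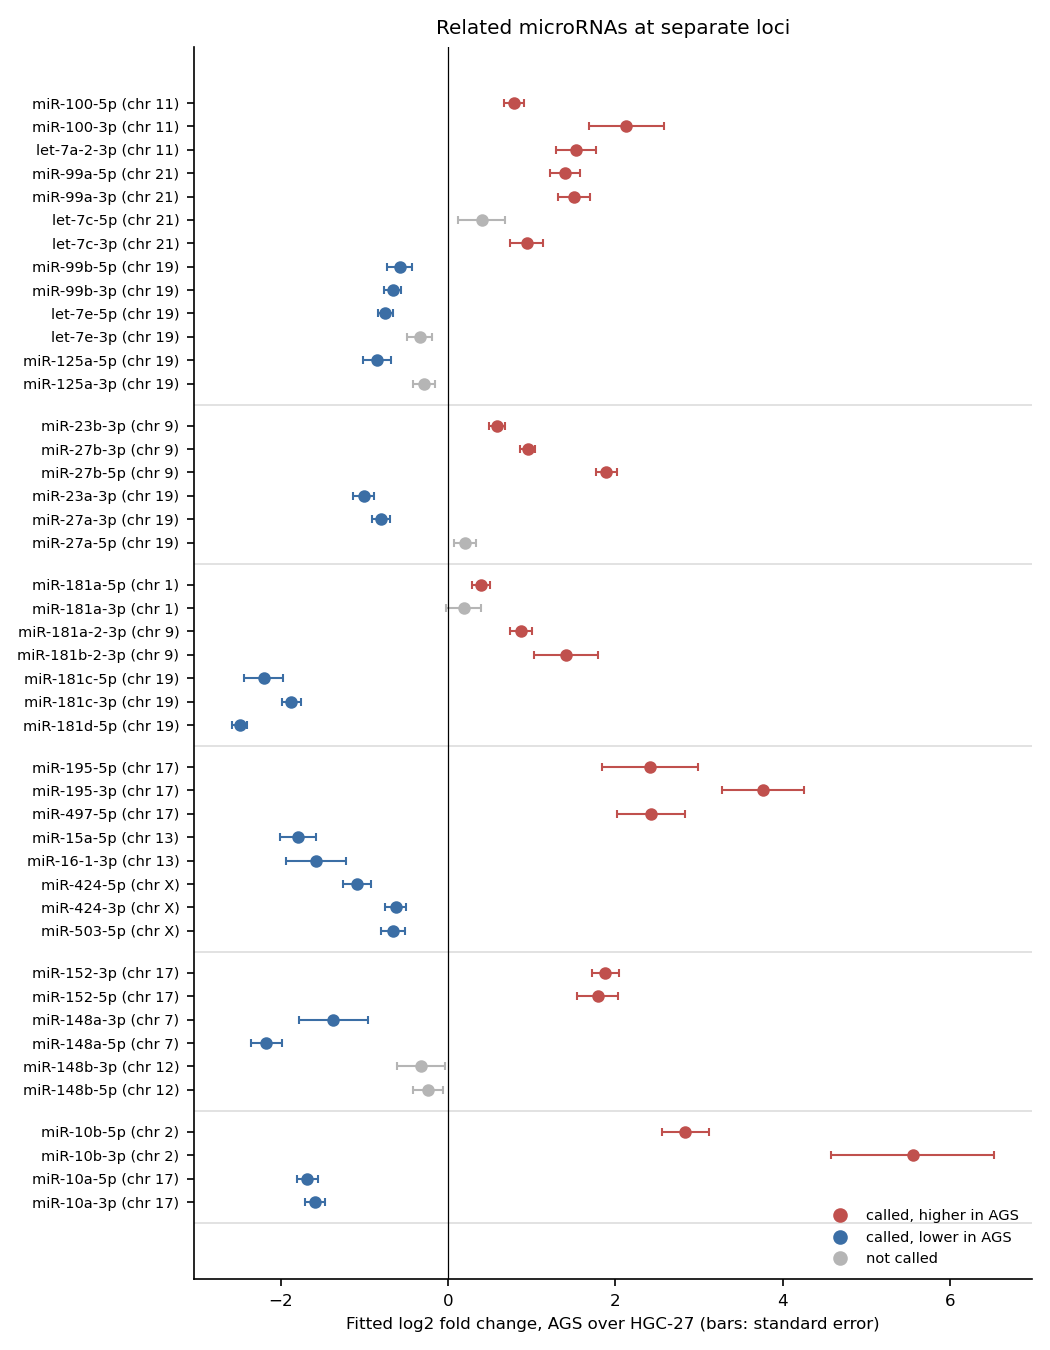
Fitted log2 fold changes, AGS over HGC-27, of related microRNAs grouped by family (grey lines) and by the chromosome of their hairpin, with standard errors as bars. Of the 44 microRNAs drawn, some of them chosen after their values were seen, 19 were called higher in AGS (red) and 18 lower (blue). Over all 608 tested, 24.5% were called higher and 20.1% lower. The drawn products of a locus lie mostly on the same side of 0.

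Hairpins within 10 kb of each other on the same strand formed 46 clusters with at least 2 hairpins among the microRNAs tested. In 25 of these at least 2 hairpins gave a called microRNA. All calls pointed in the same direction in 23, higher in AGS in 10 and lower in 13, and in both directions in 2. The share that chance would give was not tested. Clusters can share a primary transcript, so their members are not independent measurements. A mature name with several hairpins was placed at the hairpin with the highest count, which can put a product in the wrong cluster: miR-24-3p, counted on chromosome 9, was the exception in that cluster, by the call that was lost under the alternatives given above.

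When counts were summed over microRNAs with the same seed, 199 of 450 seeds were called (44.2%), 106 higher in AGS and 93 lower. Of the 450, 57 had several members. For 11 seeds, single members were called in both directions, and the sum gives their net difference. The ACCCGUA pool of miR-100-5p, miR-99a-5p and miR-99b-5p was higher in AGS, with a mean of 97782 ± 8532 CPM in AGS and 56337 ± 1686 CPM in HGC-27 (SD, n = 3 each; log2 fold change 0.80, adjusted p = 4.63e-05, edgeR). The UCACAGU pool of miR-27b-3p and miR-27a-3p was also higher, with 54507 ± 2763 CPM in AGS and 38441 ± 929 CPM in HGC-27 (0.50, adjusted p = 2.53e-04). The ACAUUCA pool of the miR-181 guides was lower, with 3699.8 ± 152 CPM in AGS and 5773 ± 219 CPM in HGC-27 (-0.64, adjusted p = 7.88e-05).

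Some seed pools pointed down although a member was called higher. The CAGUGCA pool of miR-148a-3p, miR-148b-3p and miR-152-3p had 43903 ± 25096 CPM in AGS and 90889 ± 20717 CPM in HGC-27 (-1.05, adjusted p = 0.0368), overlapping between the lines. That call was lost without HGC-27 DMSO 2 (adjusted p = 0.127), HGC-27 DMSO 3 (0.0743), AGS DMSO 1 (0.123) or AGS DMSO 3 (0.113). The AUUGCAC pool of miR-92a-3p, miR-25-3p, miR-92b-3p, miR-32-5p and miR-363-3p had 25146 ± 2044 CPM in AGS and 45156 ± 698 CPM in HGC-27 (-0.84, adjusted p = 1.31e-05), while miR-32-5p alone was higher (1.41). The AGCAGCA pool of the miR-15 and miR-16 guides was not called (-0.25, adjusted p = 0.192). Of 9 let-7 guides, 4 were called lower and none higher. Their GAGGUAG pool had 130339 ± 6912 CPM in AGS and 150231 ± 11321 CPM in HGC-27 (-0.20, adjusted p = 0.0470). That call was lost in the 6 DMSO libraries alone (adjusted p = 0.165), and without HGC-27 DMSO 2 (0.296), HGC-27 DMSO 3 (0.296), AGS DMSO 1 (0.307) or AGS DMSO 2 (0.163). In other pools all members were called lower: the UCAAGUA pool of miR-26a-5p and miR-26b-5p stood at -1.12, and the GCAGCAU pool of miR-103a-3p and miR-107, from introns of PANK2 and PANK1, at -1.07. For 30 of the 450 seeds the pool was incomplete, because a member had no sequence entry to match, and none of those is quoted.

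Over all 608 microRNAs 24.5% were called higher in AGS and 20.1% lower. In the miR-30 family, of epithelial differentiation, 7 of 11 tested members were lower and none higher (median -0.63), and 6 to 8 were lower under the alternatives tried for lists. Its summed level was 67400.3 to 78349.5 CPM in AGS libraries and 94490.3 to 127284 CPM in HGC-27 libraries. miR-30d-5p stood at -0.87, miR-30c-5p at -0.55 and miR-30a-3p at -0.25. The miR-30a-3p call was lost in the 6 DMSO libraries alone (adjusted p = 0.0552) and without HGC-27 SAHA 2 (0.0727). It was also lost without HGC-27 DMSO 2 (0.0919), HGC-27 DMSO 3 (0.0518), AGS DMSO 1 (0.0805) or AGS DMSO 2 (0.0540). In the miR-26 family 3 of 5 were lower (median -1.08), with miR-26b-5p at 1934, 2272 and 2679 CPM in AGS, against 4756, 5983 and 6556 CPM in HGC-27 (-1.33). The passenger strand miR-26b-3p lost its call when the 3 divergent libraries were left out (adjusted p = 0.0648) and without AGS DMSO 2 (0.0530), which left 2 of 5. Both guides lie in introns of CTDSP genes. In the miR-29 family, which targets collagen and other matrix genes, 3 of 7 were lower (median -0.69), or 2 without the 3 libraries that stood apart, led by miR-29a-3p with 2596, 2437 and 2624 CPM in AGS, against 4200.3, 4186 and 4121 CPM in HGC-27 (-0.71).

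The p53-responsive miR-34a-5p stood at 298, 269 and 294 CPM in AGS, against 607, 774 and 781 CPM in HGC-27 (-1.33, adjusted p = 7.57e-06). Its relative miR-449c-5p, from CDC20B, stood at 2.78, 4.33 and 1.87 CPM in AGS, against 12.03, 16.6 and 14.3 CPM in HGC-27 (-2.21). Of 6 tested miR-34 and miR-449 members 4 were lower and none higher, beside 20.1% lower and 24.5% higher over all 608. With the 3 divergent libraries left out, the count was 3 lower and 1 higher: miR-449b-5p lost its call (adjusted p = 0.0753) and miR-34c-5p was called higher (5.80, adjusted p = 0.0282). miR-34c-5p stood at 2.78, 6.66 and 0.936 CPM in AGS, against 1.96, 0 and 0 CPM in HGC-27 (2.43, adjusted p = 0.237 with all libraries). The median was -1.77 as fitted and -1.33 when miR-449b-5p, listed at 0 in AGS and too low in HGC-27 for a bound, was left out.

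The miR-17 to miR-92 clusters and their paralogues, which drive proliferation, had 4 of 21 tested members lower and none higher (median -0.28), a share lower near the 20.1% over all 608. The count was 6 with DESeq2 size factors and 2 with plain totals, without HGC-27 DMSO 1, without AGS DMSO 2 or without the 3 libraries that stood apart. The clusters of miR-183, miR-96 and miR-182 had 3 of 5 lower, with miR-182-5p at 4949, 3641 and 5956 CPM in AGS, against 7699.6, 8546 and 8338 CPM in HGC-27 (-0.76) and miR-183-5p at -0.51. The count was 2 of 6 without HGC-27 DMSO 1 or without AGS DMSO 2, where miR-182-3p lost its call (adjusted p = 0.0519 and 0.0530). That call was also lost without HGC-27 DMSO 2 (0.0554), HGC-27 DMSO 3 (0.0704) or AGS DMSO 1 (0.103). The let-7 family had 3 of 20 higher and 5 lower, beside 24.5% and 20.1% over all 608. Its median was -0.04 and turned positive, at 0.01, without the 3 libraries that stood apart. let-7b-5p stood at 6667, 6373 and 8043 CPM in AGS, against 9989, 11053 and 11934 CPM in HGC-27 (-0.65). None of 4 members of the miR-221 and miR-222 cluster was called by edgeR with all libraries (median -0.08). The values were -0.15 for miR-221-3p (adjusted p = 0.149) and -0.19 for miR-222-3p (adjusted p = 0.125). Both were called lower in AGS with DESeq2 (adjusted p = 0.0448 and 0.0418). They were also called lower by edgeR without AGS DMSO 3 (-0.32 and -0.38, adjusted p = 0.0144 and 0.0123). In the miR-193 and miR-365 clusters 1 of 8 was called, miR-193a-3p, higher in AGS. The number higher was 3 with plain totals or without AGS DMSO 2, 2 in the 6 DMSO libraries alone and 0 without HGC-27 DMSO 1.

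The general epithelial microRNAs were not called with all libraries, and for several of them the order of the lines turned on single libraries. None of 6 tested miR-200 family members was called (median 0.13), beside 44.6% over all 608. miR-200b-3p stood at 84.9, 400.4 and 128 CPM in AGS, against 316, 165 and 170.3 CPM in HGC-27 (-0.09, adjusted p = 0.913), and miR-200c-3p at 97.7, 178 and 109.5 CPM in AGS, against 121, 87.6 and 91.99 CPM in HGC-27 (0.36, adjusted p = 0.237). AGS DMSO 2 and HGC-27 DMSO 1 were the highest libraries of their lines for both. Without the 3 libraries that stood apart, miR-200b-3p was called lower in AGS (-0.69, adjusted p = 0.0319). miR-203a-3p, of squamous epithelium, stood at 1781, 1689.6 and 1784 CPM in AGS, against 1625, 1951 and 1839 CPM in HGC-27 (-0.04, adjusted p = 0.783). Of the same list, miR-205-5p, also of squamous epithelium, stood at 1.67, 0 and 12.6 CPM in AGS, against 0, 0.502 and 0.386 CPM in HGC-27 (3.75, adjusted p = 0.0529). It was called higher in 7 of the alternatives, among them DESeq2 (3.95, adjusted p = 0.0234) and the fit that leaves out the 3 divergent libraries (3.82, adjusted p = 0.0411), and most of its AGS counts came from AGS DMSO 3. The endocrine miR-375 stood at 0.835, 44.3 and 3.74 CPM in AGS, against 46.6, 0.753 and 1.16 CPM in HGC-27 (0.03, adjusted p = 0.995). It was called higher without HGC-27 DMSO 1 (3.98, adjusted p = 0.0408), and its fold change was -2.89 (adjusted p = 0.197) without AGS DMSO 2. None of these 3 was called with all libraries (median 0.03), and 2 of 4 tested were called higher without the 3 libraries (median 2.40). Both lines held the miR-200 family and miR-203a-3p.

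Of the gut-type markers, 3 of 4 tested were called higher in AGS (median 1.23), beside 24.5% over all 608. The count was 2 with DESeq2 size factors, with plain totals or without AGS DMSO 2. All 3 were placed in the same cluster of 2 hairpins on chromosome 11, so they are not independent. miR-192-5p stood at 2336, 6446 and 2700.1 CPM in AGS, against 1734, 1269 and 1081 CPM in HGC-27 (1.49, adjusted p = 0.00343). miR-194-5p, placed beside miR-192 on chromosome 11 by its most counted hairpin, stood at 298, 474 and 299 CPM in AGS, against 209, 113 and 133 CPM in HGC-27 (1.23, adjusted p = 0.00132). AGS DMSO 2 and HGC-27 DMSO 1 were again the highest of their lines. The miR-192-5p fold change was 0.95 without AGS DMSO 2 and 1.66 without HGC-27 DMSO 1, and it was called in both cases. miR-194-3p was called at 3.90, 4.997 and 5.62 CPM in AGS, against 2.21, 2.51 and 2.31 CPM in HGC-27 (1.02, adjusted p = 0.0441) and lost the call in 13 of the alternatives. miR-215-5p was not called (1.23, adjusted p = 0.254), while without the 3 libraries that stood apart it was higher in AGS (1.43, adjusted p = 0.00712), and without AGS DMSO 2 its fold change was -0.06.

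**Figure D4:**
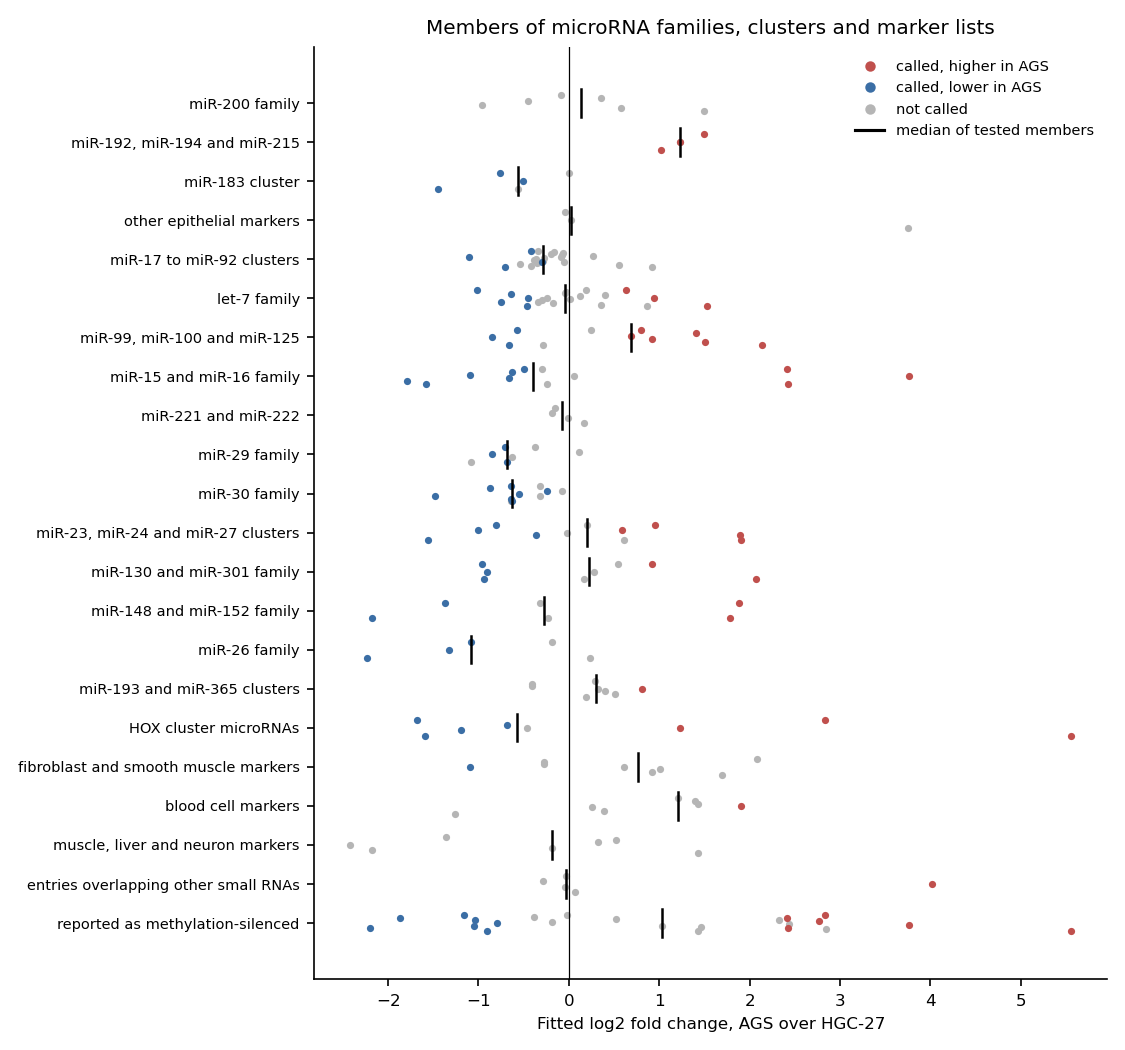
Fitted log2 fold changes, AGS over HGC-27, of the tested members of 22 lists (families, clusters, markers), 1 point for each member. Black bars are list medians, such as -0.63 for the miR-30 family, -1.08 for the miR-26 family and 1.23 for miR-192, miR-194 and miR-215; lists with a member at 0 in a line or with fewer than 3 tested members are not drawn.

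Clusters that are normally restricted to placenta, testis or embryo were tested at mostly low levels, and their called members were higher in AGS. A member that passed the filter only through AGS had to differ, so the counts that follow are a description, beside 24.5% called higher over all 608. In the primate-specific chromosome 19 cluster of placenta, 5 of 6 tested members were called higher in AGS. miR-516a-5p stood at 181, 134 and 176 CPM in AGS, against 75.6, 82.6 and 85.05 CPM in HGC-27 (1.01, adjusted p = 9.43e-05). miR-522-3p stood at 155, 128 and 141 CPM in AGS, against 63.6, 70.3 and 66.5 CPM in HGC-27 (1.08), and miR-1283 at 104, 118 and 97.4 CPM in AGS, against 36.3, 35.7 and 30.7 CPM in HGC-27 (1.64). The summed level of the 6 was 487 to 529.9 CPM in AGS libraries and 209 to 220 CPM in HGC-27 libraries. The other 53 names of this list did not pass the filter, and the highest single count among them was 14.

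From the Xq27 clusters of testis and epididymis, 4 of 7 tested microRNAs were called higher in AGS. In the 6 DMSO libraries alone, 2 passed the filter and 2 were called higher. miR-514a-3p stood at 19.5, 37.98 and 13.1 CPM in AGS and was listed in no HGC-27 library, at least 34.1-fold higher against a floor of 3 counts per library. miR-509-3-5p stood at 13.9, 25.7 and 11.2 CPM in AGS and was also listed in no HGC-27 library, at least 24.6-fold higher. The summed Xq27 level was 28.1 to 69.0 CPM in AGS libraries and at most 0.386 CPM in HGC-27 libraries. The imprinted DLK1-DIO3 cluster had 2 of 25 tested members called, miR-493-5p and miR-758-3p, both higher and both listed in no HGC-27 library. The count was 1 with other scalings or without the 3 libraries that stood apart. In the 6 DMSO libraries alone, 5 members passed the filter and 0 were called. Members that passed only through SAHA libraries had little room for a call under DMSO. The share called is therefore not compared with that over all 608. Most of the uncalled members stood at a few CPM, with miR-381-3p at 20.9, 50.6 and 18.7 CPM in AGS, against 13.5, 17.8 and 7.91 CPM in HGC-27 (1.22, adjusted p = 0.439). The only embryonic stem cell microRNA tested, miR-372-3p, stood at 0, 0.666 and 0.936 CPM in AGS and was listed in no HGC-27 library. Its call (adjusted p = 0.0422) was lost in 9 of the alternatives, and no fold is given at these counts.

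In all, 19 tested microRNAs were listed in every or some AGS libraries and in no HGC-27 library, and 3 the other way round. Besides the Xq27 pair, the most abundant of the 19 were miR-3667-3p with 14.8, 14.3 and 16.9 CPM in AGS (at least 22.2-fold higher), miR-216b-5p with 9.19, 13.7 and 4.68 CPM in AGS (at least 13.3-fold higher) and miR-3150a-5p with 1.95, 7.66 and 3.74 CPM in AGS (at least 6.46-fold higher). The miR-3150a-5p call was lost when the 3 divergent libraries were left out (adjusted p = 0.0758). Among the 3, miR-1269b stood at 8.35, 6.03 and 5.79 CPM in HGC-27 and was at least 6.22-fold lower in AGS. miR-449b-5p and miR-654-3p were at or under the floor in HGC-27 too, and no fold is given. The smallest count listed in any library was 2, so a listed 0 can hide a read. These bounds cover counting error only, since PCR reads without molecular identifiers are not independent molecules.

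Markers of other cell types were present in both lines and uneven between replicates. Each group is a single cell line, so these levels are not read as proportions of cell types. The source of these microRNAs was not tested. Beside 24.5% called higher in AGS and 20.1% lower over all 608, only miR-199b-5p was called of 8 tested fibroblast and smooth muscle microRNAs. It was lower in AGS (-1.10), and the list's median was positive (0.77). Without the 3 libraries that stood apart 4 were called higher and 1 lower (median 2.11), and without HGC-27 DMSO 1 the count was 2 higher and 1 lower (median 2.29). The list summed to 603 to 3567 CPM in AGS libraries and 179 to 1240 CPM in HGC-27 libraries, most of it miR-143-3p in the AGS libraries and in HGC-27 DMSO 1. miR-143-3p stood at 988, 3438 and 493 CPM in AGS, against 1010.0, 80.9 and 71.7 CPM in HGC-27 (2.08, adjusted p = 0.167). Without HGC-27 DMSO 1 it was called higher in AGS (4.38, adjusted p = 0.0109), and without AGS DMSO 2 the fold change was 0.97 (adjusted p = 0.595). miR-145-5p was detected in both lines, while miR-214-3p did not pass the filter, with at most 5 counts in a library.

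Blood markers had 1 of 7 tested members called, miR-486-5p, beside 44.6% over all 608. The list summed to 261 to 548 CPM in AGS libraries and 63.6 to 280.02 CPM in HGC-27 libraries. miR-451a, of red blood cells, stood at 173, 259 and 330.5 CPM in AGS, against 54.5, 239.8 and 36.4 CPM in HGC-27 (1.21, adjusted p = 0.266). miR-223-3p, of myeloid cells, did not pass the filter. The endothelial miR-126-3p, from EGFL7, stood at 1504, 2226 and 1207 CPM in AGS, against 1144, 1050.0 and 866 CPM in HGC-27 (0.69, adjusted p = 0.0358), a call lost under 7 of the alternatives. Its other arm, miR-126-5p, was not called (-0.16, adjusted p = 0.613).

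None of 7 tested muscle, liver and neuron markers was called, beside 44.6% over all 608. miR-1-3p stood at 182, 195 and 29.5 CPM in AGS, against 1035, 6.78 and 4.82 CPM in HGC-27. HGC-27 DMSO 1 alone lay above AGS, and without it the sign turned: the fold change of miR-1-3p was -1.36 (adjusted p = 0.527) with it and 4.51 (adjusted p = 0.0135) without it. miR-133a-3p, made from the same transcript, stood at 5.29, 4.33 and 3.28 CPM in AGS, against 69.5, 0.502 and 0.386 CPM in HGC-27. The share of these markers in the differences of other microRNAs was not tested beyond leaving the libraries out.

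**Figure D5:**
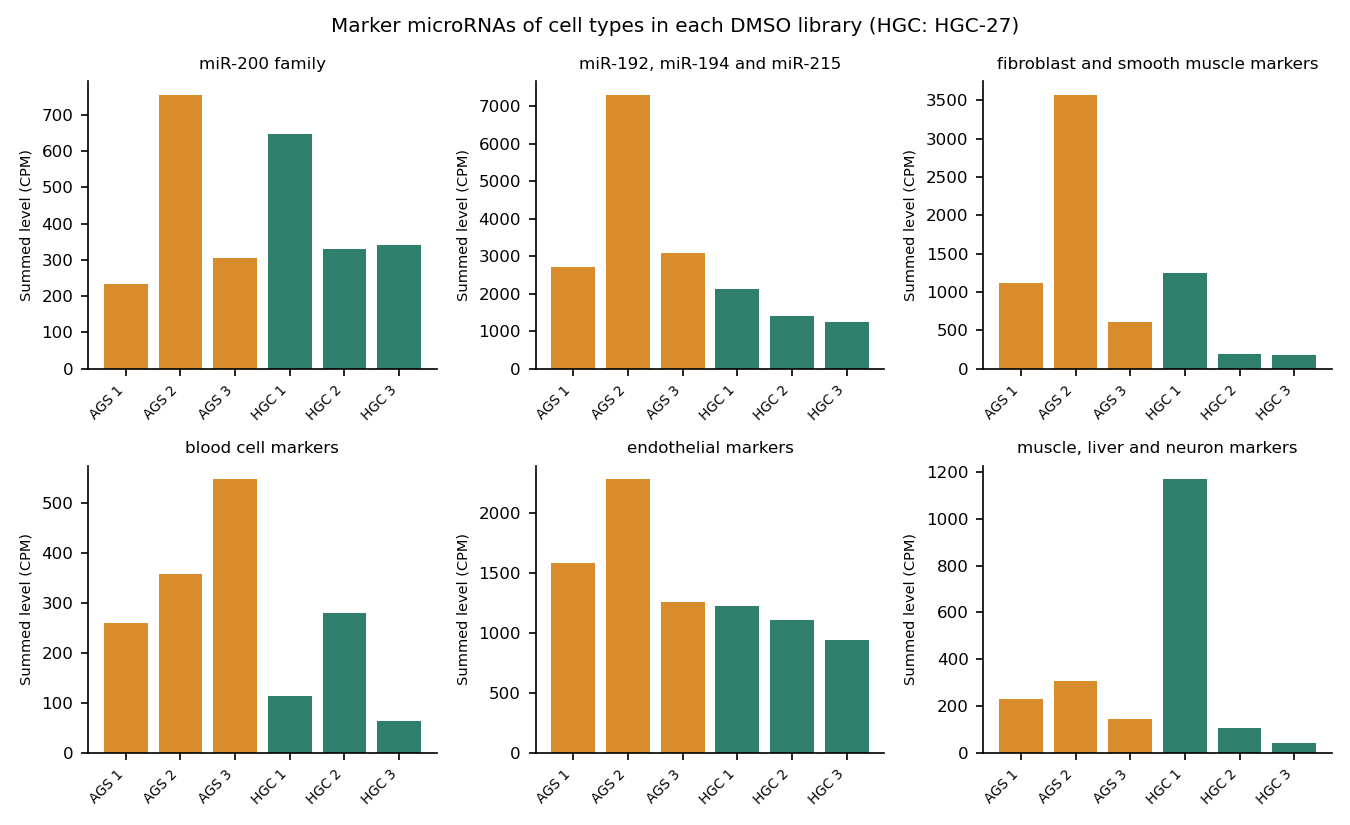
Summed level in CPM of marker microRNAs in each DMSO library, AGS 1 to 3 in orange and HGC-27 1 to 3 in green, 1 panel for each list. Muscle, liver and neuron markers reach 1171 CPM in HGC-27 1, against 103 and 40.9 CPM in HGC-27 2 and 3, and fibroblast and smooth muscle markers reach 3567 CPM in AGS 2.

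MicroRNAs whose promoters are reported to be methylated in stomach tumours showed no common direction. Of 23 tested, 6 were called higher in AGS and 7 lower, beside 24.5% and 20.1% over all 608. Their median was 1.03, against 0.03 over all 608. It was -0.0048 in the 6 DMSO libraries alone (17 tested) and 0.021 without AGS DMSO 2 (24 tested). Both of these fits called 6 higher and 7 lower. With the 3 divergent libraries left out, 8 were higher and 7 lower, with a median of -0.25. With all libraries, the higher ones were both arms of miR-10b, both arms of miR-195, miR-497-5p and miR-129-5p. The lower ones were both arms of miR-338, of miR-181c and of miR-212, and miR-1247-5p. miR-338-5p, from an intron of AATK, was the most abundant, with 421, 432 and 449 CPM in AGS, against 982, 909.9 and 1027 CPM in HGC-27 (-1.16, adjusted p = 8.43e-06). miR-941 did not pass the threshold (-0.02, adjusted p = 0.963).

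A hairpin gives a 5p and a 3p arm, and the ratio of the arms within a library does not depend on its scaling. Of 138 hairpins with both arms tested, 13 (9.42%) had a called difference in log2(5p/3p) by limma, 9 shifted toward 5p in AGS and 4 toward 3p. Both arms were called in the same direction for 41 hairpins, in opposite directions for 0, and a single arm was called for 47. For mir-27a the 5p share of counts was 10.4%, 11.5% and 11.9% in AGS, against 6.16%, 6.08% and 5.60% in HGC-27 (difference of log2 ratios 1.01, SE 0.15, adjusted p = 0.00463). miR-27a-5p accordingly was not called (0.21) while miR-27a-3p was lower. For mir-27b the 5p share was 0.601%, 0.620% and 0.637% in AGS, against 0.338%, 0.341% and 0.292% in HGC-27 (0.94, SE 0.15, adjusted p = 0.00463).

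The major arm differed between the lines for 2 of the 13 hairpins. For mir-574 the 5p share was 42.3%, 44.7% and 54.4% in AGS, against 62.5%, 66.7% and 68.7% in HGC-27 (-1.12, SE 0.20, adjusted p = 0.00631), with AGS DMSO 3 on the HGC-27 side of an even split. For mir-4482 it was 67.8%, 76.9% and 70.4% in AGS, against 34.1%, 28.6% and 32.9% in HGC-27 (2.38, SE 0.39, adjusted p = 0.00480), at a summed level of only 11.8 CPM. For mir-135b, whose arms were both lower in AGS, the 5p share was 89.6%, 91.0% and 85.7% in AGS, against 79.1%, 77.8% and 71.8% in HGC-27 (1.28, SE 0.28, adjusted p = 0.0257). The number of calls depended on which libraries entered the fit: it was 1 in the 6 DMSO libraries alone, 4 without AGS DMSO 2, 5 without HGC-27 DMSO 2 or HGC-27 DMSO 3, and 7 without HGC-27 DMSO 1 or AGS DMSO 1. The mir-4482 call was kept in each of these fits, and those of mir-27a, mir-27b and mir-574 were lost in the 6 DMSO libraries alone. The mir-135b call was lost more often: in the 6 DMSO libraries alone (adjusted p = 0.123), with a replicate block (0.0718), and without HGC-27 DMSO 2 (0.0564), HGC-27 DMSO 3 (0.118), AGS DMSO 1 (0.0536) or AGS DMSO 2 (0.106).

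The 6 SAHA libraries gave the same comparison of the lines in samples that the DMSO comparison does not use, although both rest on 1 fit and its shared estimate of spread. There, 260 of 608 microRNAs were called between the lines (42.8%). Of the 149 higher under DMSO, 142 had the same sign and 95 were called in the same direction under SAHA, and 0 were called in the opposite direction. Of the 122 lower, 114 had the same sign, 94 were called in the same direction and 2 in the opposite one, miR-1247-5p and miR-30a-3p. The DMSO call of miR-30a-3p was lost under the alternatives given above. miR-181d-5p (-2.49 under DMSO and -2.08 under SAHA), miR-10b-5p (2.84 and 3.12) and miR-378a-3p (1.96 and 1.89) had differences of like size in both. The difference between the line contrasts was called for 11 microRNAs, and 109 had an unadjusted p under 0.05. The count was 2 without HGC-27 DMSO 3, 5 without HGC-27 SAHA 1, 6 without AGS SAHA 2, 7 without HGC-27 DMSO 1, HGC-27 DMSO 2 or AGS SAHA 1, and 20 without AGS DMSO 3. Of the 271 DMSO calls, 7 were among the 11. They include miR-195-3p, higher in AGS under DMSO (3.77) and not called under SAHA (-0.34), with a difference of 4.11 (adjusted p = 0.0100). miR-192-5p was called under DMSO (1.49) and not under SAHA (-0.18), but the test of that difference gave an adjusted p of 0.0948.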

How the data were processed

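Small RNA libraries were made from TRIzol RNA with the NEBNext multiplex small RNA kit, 3 for each line under DMSO and 3 for each under SAHA, per the labels' protocols. The deposited values are raw tag counts per mature microRNA and hairpin, all isoforms summed, per the file headers. Reads were processed by the authors with cutadapt and Novoalign 2.07.11, per the submitters' processing notes. The sources used here do not give the genome build, the microRNA database release or the rule for reads that match several entries. Of 2909 entries, 2049 were annotated and 860 predicted by the authors. Blank cells were read as 0, and a mature name with several hairpins (111 names) was represented by its most counted hairpin (summed over all 12 libraries), which leaves out the counts of its other hairpins.

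The 12 libraries were fitted together in edgeR 4.0.16 (R 4.3.3) with TMM scaling, a filter on low counts set for the 4 groups (filterByExpr) and the quasi-likelihood test with 8 residual degrees of freedom. Adjustment for the 608 microRNAs tested followed Benjamini and Hochberg, and a call is an adjusted p under 0.05. The contrasts were AGS DMSO minus HGC-27 DMSO, the same under SAHA, and their difference. Counts summed over mature names with the same bases 2 to 8 were tested in the same way, with TMM scaling of their own, so that a pool and its members are on slightly different scales. Arm ratios, log2((5p count + 0.5)/(3p count + 0.5)), were tested with limma 3.58.1. Standard errors of fold changes were derived from the quasi-likelihood F statistic. A fold against a line with no count was set against 3 counts per library; such bounds cover counting error only. The tests were checked on simulated data.

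The microRNAs named are the 10 largest calls in each direction at 100 CPM or more without overlap, the 10 most abundant, the 6 most abundant calls of 2-fold or more, the 4 most abundant tested members of each list and those at 0 in a line. Other members of the same families and loci, and those with a different contrast under SAHA, were named after their values were seen. The members and lists were chosen with earlier results of these data known. Hairpins were matched by symbol to RefSeq (GRCh38.p14) or GENCODE 29 for 607 of 608 microRNAs, and 540 had a sequence entry. Alternatives were other scalings, filters, library sets, DESeq2 1.42.0, a replicate block, summed hairpins and another pseudocount. The depths of 2665109 to 6525388 counts per DMSO library leave low microRNAs imprecise. No pair of replicates agreed within sampling noise (chi-square per degree of freedom 51.3 to 163).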

Additional observations from a re-analysis of the deposited data

Results flagged for a closer look

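For 5 named microRNAs the difference between AGS and HGC-27 under DMSO was not the difference under SAHA, by an edgeR test of the contrast between the contrasts in 1 fit of 12 libraries. miR-7-5p had means of 21768 CPM in AGS and 17685 CPM in HGC-27 under DMSO, and 16306 CPM in AGS and 51267 CPM in HGC-27 under SAHA. Its line contrast under DMSO exceeded that under SAHA by 1.95 (log2, adjusted p = 5.82e-04), and the call held in every alternative tried for it.

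miR-135b-3p had a larger deficit in AGS under DMSO than under SAHA, by -1.45 (adjusted p = 0.00827). Its means were 6.10 CPM in AGS and 125 CPM in HGC-27 under DMSO, and 7.31 CPM in AGS and 54.2 CPM in HGC-27 under SAHA. The call was lost without HGC-27 DMSO 3 (adjusted p = 0.0535). miR-516a-5p had a smaller excess in AGS under DMSO than under SAHA, by -1.07 (adjusted p = 0.0112), with adjusted p-values between 0.0173 and 0.127 under the alternatives. miR-30a-3p was slightly lower in AGS under DMSO and slightly higher under SAHA, a difference of -0.51 (adjusted p = 0.0288), with adjusted p-values between 0.0387 and 0.286 under the alternatives. Of these, only the fit without AGS DMSO 3 kept the call (adjusted p = 0.0387).

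miR-216b-5p was listed in no HGC-27 DMSO library, with means of 9.18 CPM in AGS and 0 in HGC-27 under DMSO, and 14.7 CPM in AGS and 3.91 CPM in HGC-27 under SAHA. The fitted difference of 6.10 (adjusted p = 0.0105) depends on the prior count and is no bound. The call was lost without HGC-27 DMSO 3 (adjusted p = 0.0535) and with a replicate block (adjusted p = 0.0641).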

How the results depend on the processing

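Under every alternative tried the number of microRNAs called between AGS and HGC-27 under DMSO stayed within 1.5 times of 271: it was 283 with DESeq2 size factors in edgeR, 276 with plain totals, 257 with no filter, 210 of 408 at a mean of at least 10 CPM, 258 of 513 in the 6 DMSO libraries alone, 292 with DESeq2, and 228 to 289 without single libraries. With DESeq2 size factors the calls were 147 higher and 136 lower in AGS. Of 73 named calls, 59 held in each alternative in which they were fitted. Over all single values, 2097 of 2362 kept their direction and side of the threshold, 139 lost a call, 62 gained one and 64 changed sign. Of the 64, only miR-1-3p reached a call. The replicate numbers did not pair the libraries, with correlations of same-numbered deviations of -0.17, -0.26 and 0.31 over 389 microRNAs. With a replicate block 264 microRNAs were called, 4 arm ratios (3 toward 5p in AGS, 1 toward 3p) and 6 differences between the line contrasts. Arm ratio calls numbered 1 (1 toward 5p, 0 toward 3p) in the 6 DMSO libraries alone. With a pseudocount of 5, 8 were toward 3p. Without single libraries there were 4 to 14 arm calls, 3 to 8 toward 5p and 1 to 6 toward 3p. Differences between the line contrasts numbered 2 to 20 without single libraries; alternatives for these and for the SAHA contrast and the lists were chosen after seeing the data. At a mean of at least 10 CPM the fold change was 0.0529 for let-7f-5p, 0.00497 for miR-200b-3p, 0.0870 for miR-96-5p, 0.0401 for miR-203a-3p, 0.0680 for miR-221-5p, 0.0534 for miR-1260b, 0.0349 for miR-7977, 0.0716 for miR-941. With plain totals the fold change was 0.0134 for miR-96-5p, -0.0987 for miR-375. In the 6 DMSO libraries alone the fold change was 0.00893 for miR-96-5p. With hairpins summed the fold change was 0.00982 for miR-96-5p, 0.0113 for miR-221-5p, 0.00106 for miR-941. With DESeq2 size factors in edgeR the fold change was -0.00597 for miR-375. With no filter the fold change was -0.0842 for miR-375, -0.0315 for miR-15b-5p. With predicted entries in the fit the fold change was -0.0190 for miR-375. Without the 3 libraries that stood apart the fold change was 0.0680 for miR-221-5p, 0.17 for miR-26a-2-3p, 0.34 for miR-199a-3p, 0.34 for miR-199b-3p, 4.20 for miR-1-3p, 3.21 for miR-133a-3p, 0.21 for miR-7977. Without single libraries the values ranged from -0.15 to 0.0397 for let-7f-5p, -0.97 to 0.26 for miR-200b-3p, -1.13 to 0.14 for miR-200a-3p, -0.0617 to 2.75 for miR-215-5p, -0.12 to 0.0933 for miR-96-5p, -0.16 to 0.0437 for miR-203a-3p, -2.89 to 3.98 for miR-375, -0.53 to 0.00852 for miR-34a-3p, -0.16 to 0.23 for miR-15b-5p, -0.29 to 0.15 for miR-221-5p, -0.14 to 0.57 for miR-222-5p, -0.0200 to 0.18 for miR-29c-5p, -0.46 to 0.0987 for miR-26a-2-3p, -0.0621 to 0.46 for miR-193b-3p, -0.58 to 0.49 for miR-199a-3p, -0.58 to 0.49 for miR-199b-3p, -1.97 to 4.51 for miR-1-3p, -0.31 to 0.61 for miR-122-5p, -3.03 to 3.16 for miR-133a-3p, -0.16 to 0.0115 for miR-1260b, -0.33 to 0.20 for miR-7977, -0.14 to 0.0590 for miR-941. The causes were not tested. Depth limits the calls below a few CPM, where a listed 0 may stand for a single read.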

Other observations

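Entries predicted by the authors were tested together with the annotated ones in an alternative fit. There 258 predicted entries passed the filter and 146 were called between AGS and HGC-27 under DMSO. They carry no microRNA name and were not described further.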
